A study of Mus musculus with 8 samples.

Results

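Receptors for noradrenaline and acetylcholine that act through G proteins were examined in the medial prefrontal cortex (mPFC) of mice. The genes comprised Adra1a, Adra1b, Adra1d, Adra2a, Adra2c and Adrb1 of the adrenergic family and Chrm1, Chrm2, Chrm3 and Chrm4 of the muscarinic family and were selected by gene symbol, with earlier results of these data known. Of these 10 genes, 6 had a probe set annotated with their symbol alone, of 22180 genes named in this way: Adra1b, Adra2c, Chrm1, Chrm2, Chrm3 and Chrm4. Adra1a, Adra1d, Adra2a and Adrb1 were not analysed here. Where a gene had more than 1 such probe set, the one with the highest average level stood for it.

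The study profiled RNA on 8 Affymetrix arrays in 4 groups of 2: VTA pull-down, NAC pull-down, VTA input and NAC input. All mice carried a Cre-dependent tagged ribosome (TRAP), and CAV2-Cre, a canine adenovirus that brings Cre recombinase back from axon terminals to the cell body, was injected in the VTA or the NAC as the labels write the targets. Ribosomes carrying green fluorescent protein (GFP) were captured from dissected mPFC with GFP-trap for the pull-downs, and input RNA was left unpurified. The labels state no strain, age or sex, and do not say whether both arrays in a group are from different mice, so the p-values cover the variation among these particular samples, possibly technical. The virus, and not a cell type promoter, chose the labelled cells.

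Noradrenaline reaches the cortex from the locus coeruleus and acetylcholine mainly from the basal forebrain, and both set arousal, attention and working memory in the prefrontal cortex. Alpha-1 adrenergic receptors and the muscarinic receptors of Chrm1 and Chrm3 couple to Gq, which activates phospholipase C and raises intracellular calcium. Alpha-2 adrenergic receptors and the muscarinic receptors of Chrm2 and Chrm4 couple to inhibitory Gi and Go proteins, which lower cyclic AMP, open potassium channels and, on axon terminals, reduce transmitter release.

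Adra1b and Chrm2 were the receptor genes that differed between pull-down and input, and they did so in opposite directions. Averaged over both targets, Adra1b was 1.23-fold higher in the pull-downs and Chrm2 was 1.51-fold lower. In that comparison 41.5% of all tested genes passed, 9.6% higher and 32% lower, so 2 of 6 is near that share. No receptor gene passed the test between VTA and NAC samples. Values are on the log2 scale as deposited, group values are mean ± SD of 2 arrays, and a gene was called at an adjusted p below 0.05 in limma (Benjamini-Hochberg over 11712 tested genes). All 6 genes entered the test. Of these, 5 lay above the median of the named genes on every array, and Adra2c did so on 7 of 8.

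**Figure D1:**
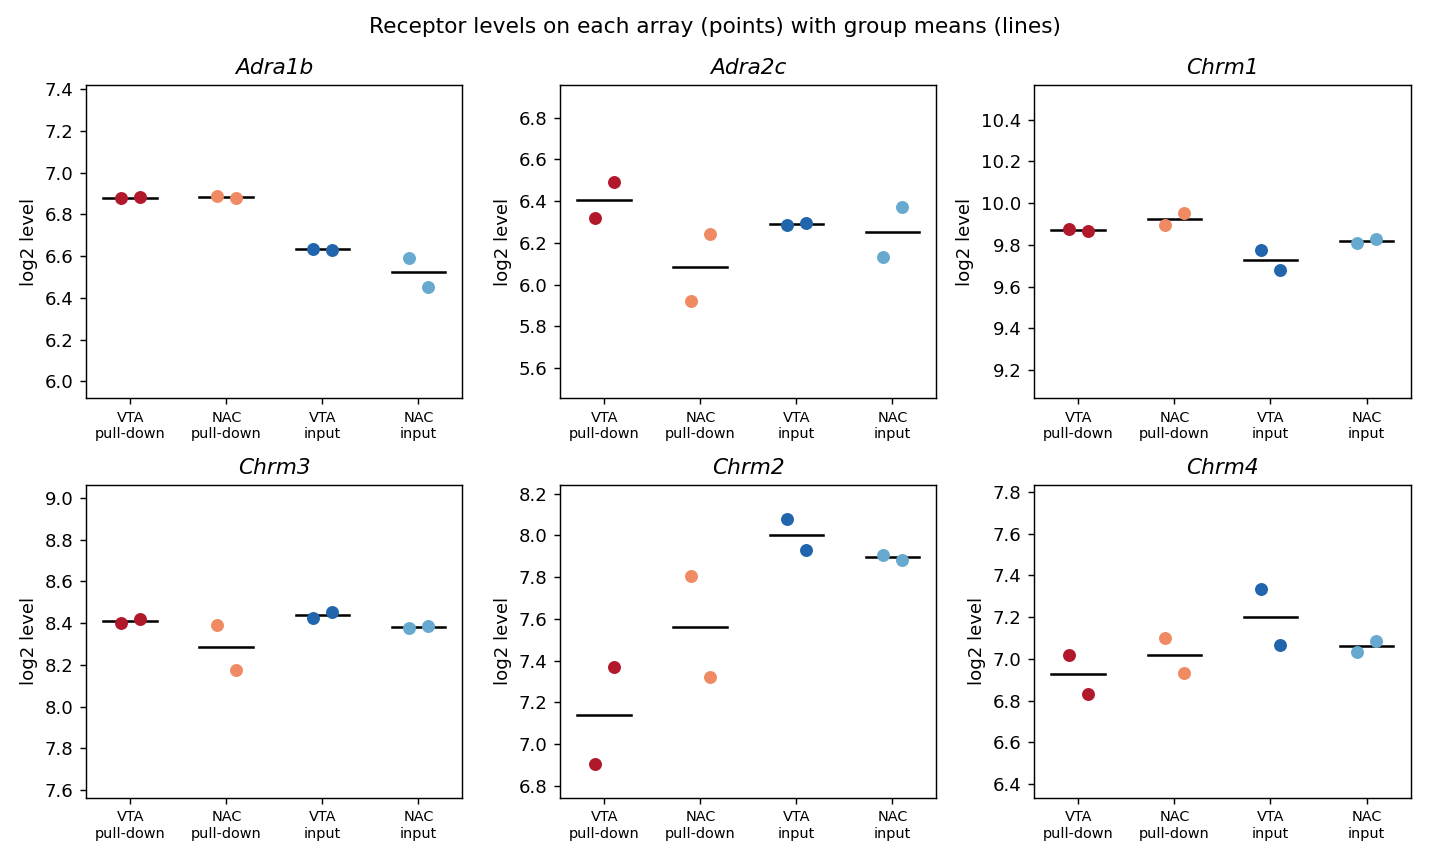
Log2 level (vertical axes, each spanning the same range of log2 units) of the 6 receptor genes on every array, as points, with group means as lines, for VTA pull-down, NAC pull-down, VTA input and NAC input. All 4 pull-downs lie above all 4 inputs for Adra1b and below them for Chrm2.

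Among the receptors coupled to Gq, Adra1b codes for the alpha-1B adrenergic receptor. Its level was 6.88 and 6.88 in the VTA pull-downs, 6.89 and 6.88 in the NAC pull-downs, 6.64 and 6.63 in the VTA inputs, and 6.59 and 6.45 in the NAC inputs. The 4 pull-downs were nearly equal, and each lay above all 4 inputs. The averaged pull-down minus input was 0.30 (SE 0.06, 95% interval 0.16 to 0.45, limma adjusted p = 0.0055). Against this, the median of all tested genes was -0.11 in the same comparison, and 9.6% of them were called higher. Relative to the median of the named genes on its own array, Adra1b stood at 0.96 to 1.02 in the pull-downs and 0.52 to 0.69 in the inputs.

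Within the NAC samples, the Adra1b level averaged 6.88 ± 0.00 in the pull-downs and 6.52 ± 0.10 in the inputs. The difference of 0.36 passed (SE 0.09, limma adjusted p = 0.034), in a comparison where 12.3% of genes were called, 4.34% higher and 8.01% lower. It lost its call when any NAC array or either VTA input was left out, and when only the NAC arrays were fitted (limma adjusted p = 0.0547). The call was also lost without a filter on low levels and with arrays centred on all probe sets. The difference itself stayed at 0.29 to 0.43 in these fits. Within the VTA samples, Adra1b averaged 6.88 ± 0.00 in the pull-downs and 6.63 ± 0.01 in the inputs. The difference of 0.25 missed the threshold (SE 0.09, limma adjusted p = 0.062), but was 0.33 and 0.42 and passed when arrays were centred on the median of the named genes (adjusted p = 0.0317) or quantile normalized (0.0126). With arrays centred on all probe sets it was 0.17 (limma adjusted p = 0.278). The enrichment of Adra1b was not shown to differ between the targets: VTA minus NAC was -0.11 with a 95% interval of -0.40 to 0.18.

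Chrm1 codes for the main excitatory muscarinic receptor of cortical pyramidal neurons. Its level was 9.88 and 9.86 in the VTA pull-downs, 9.89 and 9.95 in the NAC pull-downs, 9.77 and 9.68 in the VTA inputs, and 9.81 and 9.83 in the NAC inputs. Every pull-down lay above every input, though by little. The averaged difference of 0.12 missed the threshold (SE 0.06, 95% interval -0.02 to 0.26, limma adjusted p = 0.14). It was 0.19 and passed in limma when arrays were quantile normalized (adjusted p = 0.0365), and was 0.07 when they were centred on all probe sets (adjusted p = 0.50). A second Chrm1 probe set, closer to the array medians at 5.95 to 6.42, gave an averaged difference of 0.02.

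Chrm3 codes for another excitatory muscarinic receptor. Its level was 8.40 and 8.42 in the VTA pull-downs, 8.39 and 8.17 in the NAC pull-downs, 8.42 and 8.45 in the VTA inputs, and 8.38 and 8.39 in the NAC inputs. The second NAC pull-down was the low array, and the other 7 lay within a narrow band. The averaged difference was -0.06 (95% interval -0.22 to 0.09, limma adjusted p = 0.49) and its sign turned, to 0.05, with quantile normalization. Of the Gq-coupled receptor genes, Adra1b therefore passed and Chrm1 and Chrm3 did not, and whether they differ from one another was not tested.

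Among the receptors coupled to Gi and Go, Chrm2 codes for the muscarinic receptor known as an autoreceptor of cholinergic terminals and as a receptor of cortical interneurons. Its level was 6.91 and 7.37 in the VTA pull-downs, 7.80 and 7.32 in the NAC pull-downs, 8.08 and 7.93 in the VTA inputs, and 7.91 and 7.88 in the NAC inputs. All 4 inputs lay close together, the 4 pull-downs were spread over a wide range below them, and the first NAC pull-down came nearest to the inputs. The averaged difference was -0.60 (SE 0.12, 95% interval -0.87 to -0.32, limma adjusted p = 0.0049), where 32% of tested genes were called lower. It ranged from -0.72 to -0.48 when each array was left out in turn and passed each time.

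Within the VTA samples, the Chrm2 level was 7.14 ± 0.33 in the pull-downs and 8.004 ± 0.11 in the inputs. This difference of -0.86, a 1.82-fold fall, passed (SE 0.18, 95% interval -1.26 to -0.47, limma adjusted p = 0.0075), in a comparison where 31.3% of genes were called, 5.44% higher and 25.9% lower. Without the first VTA input it was -0.79 and missed the threshold (adjusted p = 0.0761), and 415 of all genes then passed, against 3671 with all arrays. Within the NAC samples, Chrm2 was at 7.56 ± 0.34 in the pull-downs and 7.90 ± 0.02 in the inputs, and the difference of -0.33 did not pass (95% interval -0.72 to 0.06, limma adjusted p = 0.23). That value depended on which NAC pull-down was kept: in limma the difference was -0.57 without the first (adjusted p = 0.067) and -0.09 without the second (adjusted p = 0.828).

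The fall of Chrm2 was not shown to differ between the targets. VTA minus NAC enrichment was -0.53 (95% interval -1.09 to 0.02, unadjusted p = 0.057 and adjusted p = 0.42 in limma), and it was -0.30 and -0.29 without the first VTA or the first NAC pull-down, and -0.77 without the second of either. The order of the 4 group means ran from the VTA inputs through the NAC inputs and NAC pull-downs to the VTA pull-downs, and no neighbours in that order differed by the test.

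Chrm4 codes for a muscarinic receptor that is abundant in striatum and also found in cortex. Its level was 7.02 and 6.83 in the VTA pull-downs, 7.10 and 6.93 in the NAC pull-downs, 7.34 and 7.07 in the VTA inputs, and 7.04 and 7.09 in the NAC inputs. Pull-downs and inputs overlapped, and the first VTA input was the high array. The averaged difference of -0.16 did not pass (SE 0.08, 95% interval -0.35 to 0.03, limma adjusted p = 0.15). The VTA difference of -0.27 (limma adjusted p = 0.10) passed under one other scaling, with arrays centred on the median of all probe sets (-0.35, adjusted p = 0.0438), and was -0.09 with quantile normalization.

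Adra2c codes for the alpha-2C adrenergic receptor, which restrains noradrenaline release and is also made by neurons that receive it. Its level was 6.32 and 6.49 in the VTA pull-downs, 5.92 and 6.24 in the NAC pull-downs, 6.28 and 6.29 in the VTA inputs, and 6.13 and 6.37 in the NAC inputs. The first NAC pull-down lay at its array's median, and the others were above theirs by 0.17 to 0.63. The averaged pull-down minus input was -0.03 (95% interval -0.23 to 0.18, limma adjusted p = 0.83), and its sign was not stable. It was 0.07 with quantile normalization and 0.03 with arrays centred on the named genes, and 0.02, 0.05 and 0.03 without the first VTA pull-down, the first NAC pull-down or the second NAC input. Both VTA inputs were nearly equal while the NAC arrays were spread widely in both fractions.

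**Figure D2:**
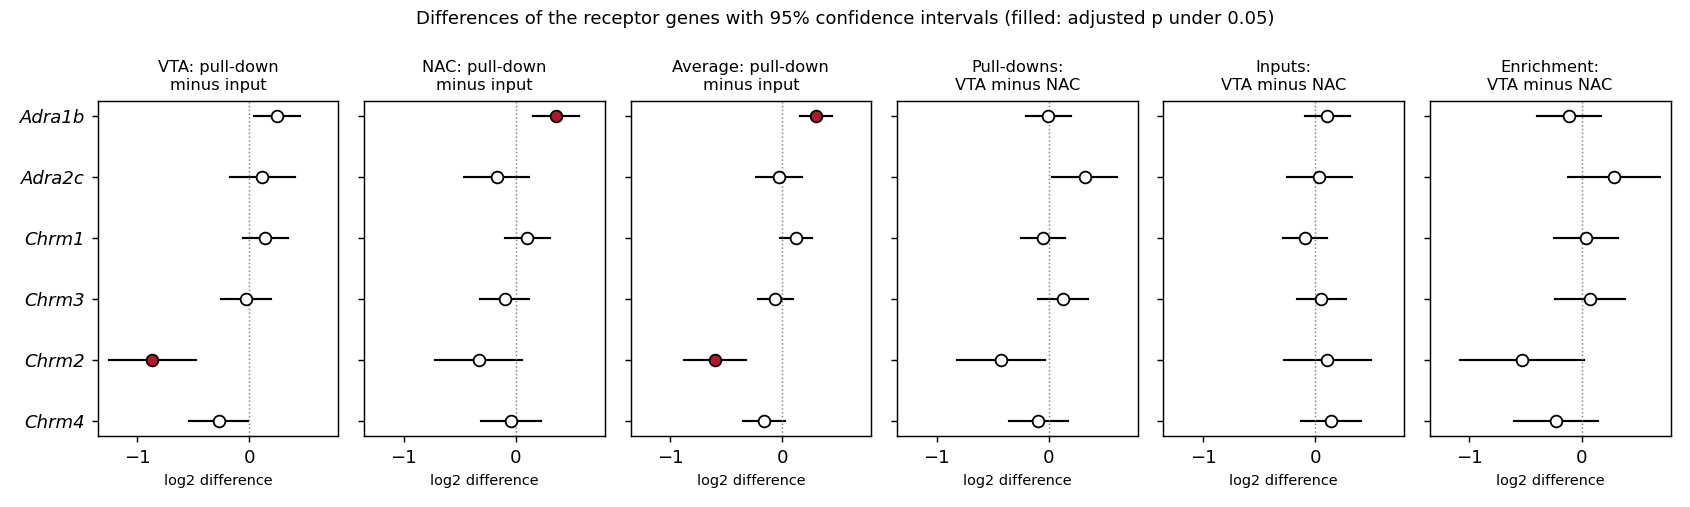
Log2 differences (horizontal axes) with 95% confidence intervals from the limma model for the 6 receptor genes in the 6 comparisons; filled points have an adjusted p below 0.05. Filled points are those of Adra1b (0.36 with NAC, 0.30 averaged) and Chrm2 (-0.86 with VTA, -0.60 averaged).

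The comparison of the pull-downs asked whether cells labelled from the VTA and from the NAC differ in receptor transcripts on their ribosomes. None of the 6 genes passed in limma (smallest Benjamini-Hochberg adjusted p = 0.26), where 2.47% of all tested genes were called, 0.418% higher and 2.05% lower. An unadjusted p below 0.05 was found for 2 of the 6, and for 1902 of all 11712 genes. The 2 were Adra2c, with 6.40 ± 0.12 in the VTA and 6.08 ± 0.23 in the NAC pull-downs, a difference of 0.32 (95% interval 0.03 to 0.61), and Chrm2, with 7.14 ± 0.33 in the VTA and 7.56 ± 0.34 in the NAC pull-downs, a difference of -0.42 (95% interval -0.81 to -0.03). Single arrays moved both values: Adra2c was 0.16 without the first NAC pull-down and 0.48 without the second, and Chrm2 was -0.19 and -0.18 without the first VTA or the first NAC pull-down and -0.66 without the second of either. Both VTA pull-downs lay above both NAC pull-downs for Adra2c. For Chrm2 the second VTA pull-down lay above the second NAC pull-down, so the groups overlapped. Counted over the 6 genes, both VTA pull-downs lay above both NAC pull-downs for 2, Adra2c and Chrm3, and below them for 1, Chrm1, as they did for 15.4% and 28.8% of all genes. For the other genes the differences were 0.00 for Adra1b (-0.21 to 0.20), -0.05 for Chrm1 (-0.25 to 0.15), 0.13 for Chrm3 (-0.09 to 0.35) and -0.09 for Chrm4 (-0.36 to 0.17).

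Between the inputs, which hold the whole tissue after either injection, none of the 6 genes passed in limma (smallest Benjamini-Hochberg adjusted p = 0.70), and 0 had an unadjusted p below 0.05, against 1276 of all 11712 genes. Of all tested genes 1.5% were called, 0.12% higher and 1.38% lower. VTA minus NAC input ran from -0.09 for Chrm1 to 0.14 for Chrm4. Both VTA inputs lay above both NAC inputs for Adra1b, Chrm2 and Chrm3 (34.3% of all genes did so) and below them for Chrm1 (12.4%). For the difference of enrichment between the targets none passed either (smallest limma Benjamini-Hochberg adjusted p = 0.42), and 0.0683% of all genes were called, 0.00854% higher and 0.0598% lower. Here 0 of the 6 had an unadjusted p below 0.05, against 1409 of all 11712 genes.

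Counted together, 1 of the 6 genes was higher and 1 lower in the averaged comparison, where 41.5% of all tested genes were called in either direction, so 2 of 6 is near the background. The median of the 6 differences was -0.05, against -0.11 over all genes. In the averaged comparison the pull-downs lay above every input for 2 genes (7.91% of all genes did so) and below every input for 1 (24.8%). Within the VTA samples 3 of the 6 lay above and 3 below (16% and 53% of all genes), and within the NAC samples 2 lay above and 1 below (22.8% and 39.5%).

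**Figure D3:**
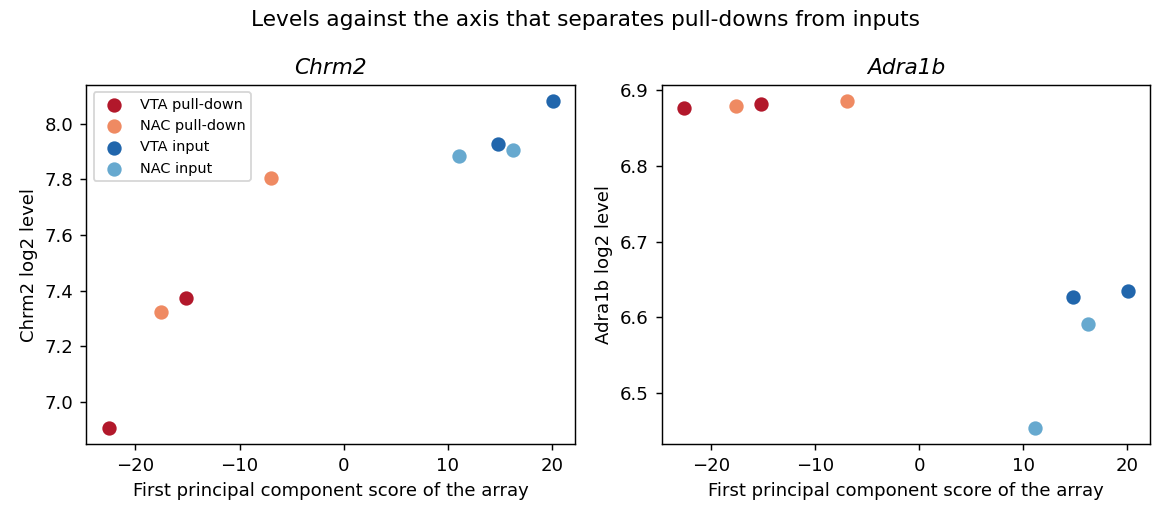
Log2 level of Chrm2 and Adra1b (vertical axes) against each array's score on the first principal component of the 11712 tested genes (horizontal axes). Chrm2 in the 4 pull-downs follows the order of the scores, from 6.91 at -22.6 to 7.80 at -6.95, while Adra1b is 6.88 to 6.89 in all of them.

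The arrays themselves differed in how far pull-downs and inputs stood apart. Principal component 1 carried 50.4% of the variance and put the pull-downs at -22.6 and -15.1 with VTA and at -6.95 and -17.6 with NAC, and the inputs at 20.1 and 14.8 with VTA and at 16.3 and 11.1 with NAC. The first NAC pull-down, which has the highest Chrm2 level of the pull-downs, was nearest to the inputs, and the first VTA pull-down, which has the lowest, was farthest. Chrm2 levels in the 4 pull-downs ran in the same order as these scores, though the middle values of 7.32 and 7.37 were close. Those of Adra1b were nearly equal. Chrm2 is itself among the genes that made the scores, and how many other genes follow this order was not counted. The part of this difference between arrays in the Chrm2 values was not tested. Principal component 2 carried 24% of the variance and separated the targets in both fractions. It put the VTA arrays at 9.59 to 11.9 and the NAC arrays at -12.3 to -10.6, and what lies behind it was not tested. Rpl10a, a ribosomal protein gene often used to carry the GFP tag, was at 11.9 and 11.9 in the VTA pull-downs, 12.1 and 12.1 in the NAC pull-downs, 9.87 and 10.4 in the VTA inputs, and 10.9 and 10.9 in the NAC inputs. Between the inputs it was called lower with VTA (-0.82), where 1.5% of all tested genes were called.

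Markers of cells other than projection neurons were also examined in the averaged comparison, where 32% of all tested genes were called lower and 9.6% higher. There, 7 of 10 markers of GABAergic interneurons were called lower in the pull-downs and none higher (median -0.25). Gad2 at -0.76 and Nxph1 at -0.67 had the largest falls, and Slc32a1, Npy and Sst did not pass (-0.16, -0.02 and 0.04). Within the VTA samples 3 of 10 were called lower and within the NAC samples 4 of 10, against 25.9% and 8.01% of all tested genes. Gad1, counted among the 7, was above the array medians on every input but only on the second VTA pull-down. It thus entered the test through the inputs, and its call does not stand as support. Under the 3 other scalings 4 to 7 of the interneuron markers were lower. The mean log2 level of these markers was 8.58 and 8.64 in the VTA pull-downs, 8.51 and 8.45 in the NAC pull-downs, 8.83 and 8.86 in the VTA inputs, and 8.86 and 8.85 in the NAC inputs. It was lowest in the NAC pull-downs, while Chrm2 was lowest in the VTA pull-downs. Striatal neuron markers, the cells in which Chrm4 is abundant, were at 7.54 and 7.49 in the VTA pull-downs, 7.52 and 7.36 in the NAC pull-downs, 8.02 and 7.93 in the VTA inputs, and 7.85 and 7.69 in the NAC inputs, with 3 of 5 lower and none higher (3 to 4 under the other scalings). On average these lists stayed above the array medians in the pull-downs, and their part in the receptor values was not tested. In bulk RNA, fewer cells of a type and less RNA per cell cannot be told apart. Pull-down minus input also compares RNA captured with ribosomes to unpurified RNA, so these differences do not measure cell numbers.

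The glial markers fell as well. In the averaged comparison 5 of 5 oligodendrocyte, 5 of 6 astrocyte and 4 of 5 microglial markers were lower in the pull-downs and none was higher (medians -0.64, -0.51 and -0.55), and 5, 4 to 5 and 3 to 4 were lower under the other scalings. The shares over all tested genes in the averaged comparison were 32% lower and 9.6% higher. Of 5 glutamatergic neuron markers, Nrgn was higher at 0.24, Tbr1 and Camk2a were lower at -0.24 and -0.23, and Slc17a7 and Neurod6 did not pass. That split was 1 higher and 0 lower with arrays centred on the named genes, 0 and 2 with all probe sets, and 2 and 1 with quantile normalization. Between the targets, 1 of 6 astrocyte and 1 of 5 microglial markers were called lower with VTA, in pull-downs and in inputs. Of all tested genes 2.05% and 1.38% were called lower there. The other 5 astrocyte and 4 microglial markers were not called in either. List medians in pull-downs and inputs were 0.04 and -0.10 for astrocytes, and -0.17 and -0.33 for microglia, so the called genes do not stand for their lists. Gfap averaged 8.11 with VTA and 9.32 with NAC in the pull-downs, and 8.74 and 9.57 in the inputs. C1qa averaged 7.60 and 8.43 in the pull-downs, and 8.14 and 9.05 in the inputs.

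**Figure D4:**
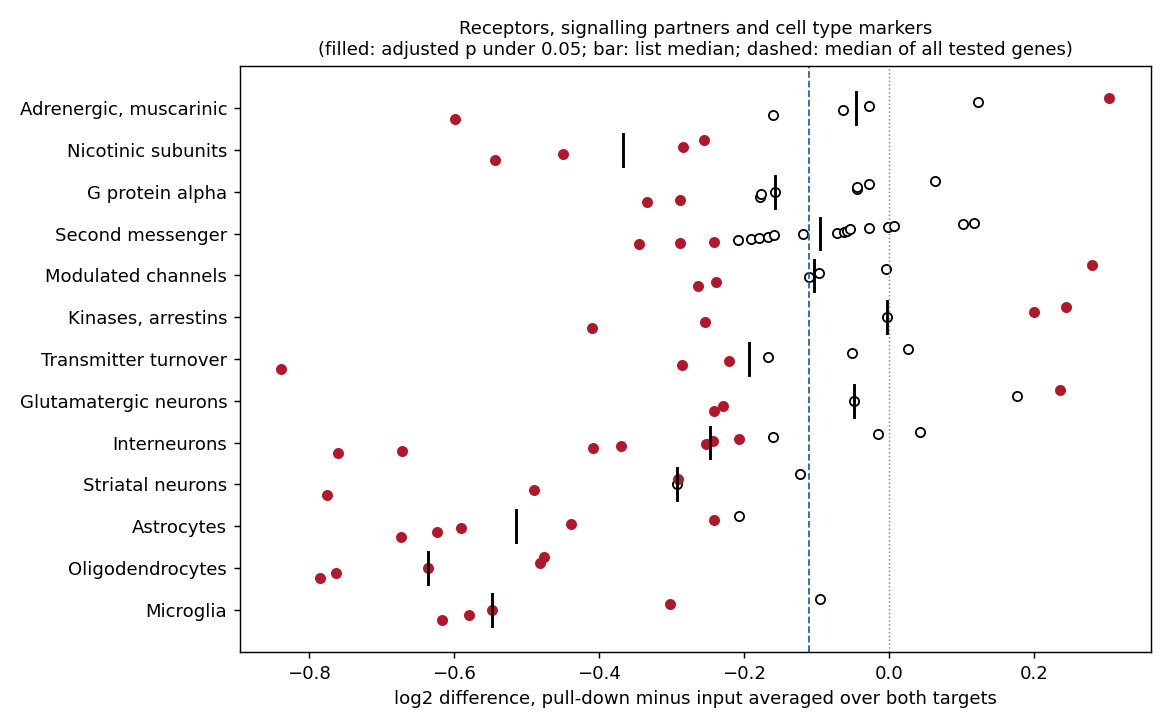
Averaged log2 difference of pull-downs minus inputs (horizontal axis) for tested genes of the receptor, signalling and marker lists (rows). Filled points passed the test, bars are list medians, the dashed line is the median of all tested genes at -0.11; the receptor genes run from -0.60 (Chrm2) to 0.30 (Adra1b).

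The remaining muscarinic receptor gene measured, Chrm5, lay under the array medians on all arrays and was not tested. It was at 3.79 and 3.88 in the VTA pull-downs, 4.08 and 3.75 in the NAC pull-downs, 3.96 and 4.20 in the VTA inputs, and 3.89 and 3.73 in the NAC inputs. Nicotinic receptor subunits, which form acetylcholine-gated ion channels, gave 4 tested genes of 13. All of these, Chrna7, Chrna5, Chrna4 and Chrnb2, were lower in the averaged comparison (-0.54, -0.45, -0.28 and -0.26), where 32% of all tested genes were called lower. Under the other scalings 2 to 4 were lower. Within the VTA samples 4 were called lower and within the NAC samples only 1, Chrna7, against 25.9% and 8.01% of all tested genes. Chrna5 was above the array medians only in the 2 VTA inputs, so it entered the test through a group in which it was high. Neither its calls nor the counts of 4 stand as support. Chrna7 was at 7.57 and 7.77 in the VTA pull-downs, 7.91 and 7.80 in the NAC pull-downs, 8.33 and 8.24 in the VTA inputs, and 8.40 and 8.25 in the NAC inputs, with no overlap between pull-downs and inputs.

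In the averaged comparison, used for the signalling lists below, 32% of all tested genes were called lower and 9.6% higher. Of 9 tested G protein alpha subunit genes, Gnai3 (-0.33) and Gna11 (-0.29) were lower and none higher, and 1 to 2 were lower under the other scalings. Gnaq, which carries the signal of Gq-coupled receptors, had -0.04 and Gnao1, the abundant Go subunit of brain, -0.03, and neither passed. Of 18 tested genes of phospholipase C beta, adenylyl cyclase and their kinases, 3 were lower and none higher (median -0.09), namely Prkacb, a catalytic subunit of protein kinase A, at -0.34, the adenylyl cyclase gene Adcy9 at -0.29 and Plcb4 at -0.24. Under the other scalings 1 to 4 of them were lower. Both lists had a smaller share called lower than all tested genes in the averaged comparison. Plcb1, the phospholipase C that muscarinic receptors use in cortex, had -0.03 and did not pass.

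Genes that turn receptors off were called in both directions, where 9.6% of all tested genes were called higher and 32% lower. Of 5 tested receptor kinase and arrestin genes, the kinase gene Grk6 (0.24) and the arrestin gene Arrb2 (0.20) were higher, and the kinase genes Grk5 (-0.41) and Grk3 (-0.25) were lower. Centring on all probe sets left 0 higher and 2 lower, and the other scalings 2 higher and 1 lower. Of 6 tested channel genes that these receptors are known to modulate, Hcn2, a pacemaker channel gene, was higher at 0.28, and Kcnj6, a potassium channel gene opened by Gi-coupled receptors, and Kcnq5, a channel gene of the muscarine-sensitive current, were lower at -0.26 and -0.24. With arrays centred on the named genes or quantile normalized the split was 1 higher and 0 lower, and with all probe sets 0 and 2.

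Enzymes that break down the transmitters included Maob, a monoamine oxidase gene strong in astrocytes, which had the largest fall of the transmitter genes at -0.84 (SE 0.12, limma adjusted p = 0.0011). Bche, which codes for butyrylcholinesterase, fell by 0.22 and the catecholamine synthesis gene Th, close to the array medians, fell by 0.28. Ache, the main acetylcholine-splitting enzyme, had 0.03 and did not pass. Of the 6 tested genes of this list 3 were lower and none higher, against 32% and 9.6% of all tested genes. Under the other scalings 1 to 3 were lower. The cholinergic neuron genes Chat, Slc18a3 and Slc5a7 and the noradrenergic genes Dbh and Slc6a2 lay under the array medians on all arrays.

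The genes with the most similar patterns were found by the root mean square distance between profiles over the 8 arrays, each scaled to mean 0 and SD 1. For Adra1b they were Vti1b (distance 0.10), a gene of vesicle fusion, and Yeats4 (0.12), a chromatin gene. Vti1b was at 10.1 and 10.1 in the VTA and NAC pull-downs and at 9.84 and 9.70 in the VTA and NAC inputs, so it too was higher in the pull-downs and lowest in the NAC inputs. For Chrm2 they were Tnfaip1 (0.13) and Exoc2 (0.15), a gene of the exocyst complex. Exoc2 averaged 7.98 and 8.28 in the VTA and NAC pull-downs and 8.61 and 8.52 in the VTA and NAC inputs, the same order of groups as Chrm2. Such genes were picked for their likeness on these arrays, so the shared order follows from the choice and is no separate result.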

How the data were processed

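Per the submitters' processing notes, the authors made the deposited values with Transcriptome Analysis Console; the sources used here do not give its version, background correction or normalization. The deposited table gives log2 values of 41345 probe sets on each array, used as deposited. Array values carry no read depth; the number of arrays limits the precision. Array medians were 5.08 to 5.22 over all probe sets and 5.86 to 5.98 over the named genes. The platform annotation gave 1 symbol to 23521 probe sets, several to 1814 and none to 16010; 23328 were also found by Entrez identifier in RefSeq (GRCm38.p6), and 22180 genes were named.

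Genes above the named-gene median on at least 2 of 8 arrays were tested. limma 3.58.1 (R 4.3.3) fitted a mean for each of the 4 groups to all arrays (4 residual and 6.07 prior degrees of freedom), with two-sided tests and Benjamini-Hochberg adjustment over 11712 genes in each of 6 comparisons; comparisons that share arrays are not independent. The fit was also run on simulated data with independent noise for each gene and few genes changed. Those settings differ from these arrays, so that run does not support the calls. The members and the gene lists were chosen with earlier results of these data known. All analysed receptor genes are named; of other lists, the called genes with the largest differences (up to 4), some uncalled ones being added after their values were seen. Alternatives were other filters, scalings, probe set rules, fits and arrays left out.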

Additional observations from a re-analysis of the deposited data

How the results depend on the processing

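The averaged comparison called 2 receptor genes in every fit tried except quantile normalization, which called 3 by adding Chrm1. Within VTA, where 1 was called, both ways of centring the arrays and quantile normalization called 2, and leaving out each array gave 0 to 1. Within NAC, where 1 was called, the count was 0 without a filter on low levels, with arrays centred on all probe sets and with only the groups compared in the fit, and 0 to 1 when arrays were left out; the causes were not tested. In the comparisons between targets the count was 0 in all fits. The averaged differences ranged from 0.25 to 0.43 for Adra1b and from -0.72 to -0.47 for Chrm2. Counts over all genes moved more. Of 4866 genes called in the averaged comparison, 1124 were higher and 3742 lower, against 1523 and 2561 with arrays centred on the named genes, 717 and 4285 with all probe sets, and 2060 and 2180 with quantile normalization, which also moved the median VTA difference over all genes to -0.01, against -0.15. Leaving out arrays gave 3068 to 5065 genes in the averaged comparison, 415 to 3713 within VTA (3671 with all arrays), 149 to 1848 within NAC (1446), 151 to 335 between pull-downs (289), 100 to 206 between inputs (176) and 1 to 8 for the difference of enrichment (8). Without a filter these counts were 3451, 1907, 105, 113, 140 and 1. With only the groups compared, 119 genes were called between pull-downs. Same-numbered pull-down and input arrays deviated together with NAC (r = 0.30 across genes, which are not independent) but not with VTA (r = -0.02). Same-numbered VTA and NAC arrays did so among the inputs (r = 0.22) but not among the pull-downs (r = -0.13). As not every pair correlated, the numbers were not taken as pairs. With a replicate block the receptor counts were 2, 1 and 1 as without it, and 0 between targets, and 5088 genes were called in the averaged comparison and 1 in the difference of enrichment. A crossed replicate block for the pull-downs, added after seeing that same-numbered arrays deviated in opposite directions there, called 0 receptor genes.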
